A study of Mus musculus with 24 samples.

Results

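CD4 T cells bearing the BDC2.5 T cell receptor transgene, sorted from the pancreatic lymph node, were compared between mice of the B6g7 background and NOD mice. The cells were chosen by their labels, and they account for 5 of the 24 arrays in the series, 2 from B6g7 and 3 from NOD mice. B6g7 stands for C57Bl/6 mice homozygous for the H2g7 haplotype, on which the labels describe an aggressive insulitis (infiltration of the islets). On NOD the insulitis is described as benign. For these 5 arrays mice of both backgrounds carry H2g7 and the transgene, so neither the major histocompatibility haplotype nor the receptor was meant to differ. The cells were sorted as viable (Hoechst-negative), CD4-positive and high for the BDC2.5 clonotype, and their RNA was amplified in 2 rounds before hybridisation. B6g7 array 1 came from mice 25 days old and B6g7 array 2 from mice 22 days old. NOD arrays 1, 2 and 3 came from mice of 24, 22 and 25 days. Whether an array held cells of 1 animal or of a pool, and of which sex, is not stated, so the spread between arrays may be technical. The p-values measure that spread pooled over 10 groups and all 24 arrays of the series, not over the 5 lymph node arrays alone. The labels also do not say whether different populations came from the same mice. Pancreatic T cells came from mice of 22 to 25 days and the pancreatic infiltrate from mice of 24 days or older. The titles of the splenic leukocyte and NK cell arrays do not name the transgene. No age is given for the spleen arrays or the NOD NK cells, and B6g7 NK cells came from mice of 3 weeks or older.

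The BDC2.5 receptor recognises a peptide of islet beta cells presented by the I-Ag7 class II molecule. In mice that carry it, islet antigen reaches the pancreatic lymph node with migrating antigen-presenting cells, and the T cells meet it there before they enter the islets. Activated T cells are known to raise surface receptors such as Cd44 and members of the TNF receptor family, to shift their carbohydrate metabolism and to change their integrins and homing receptors, while naive T cells keep the transcription factor Klf2 and the homing receptors for lymph nodes.

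Values are log2 of the intensity that the authors deposited for each of 12422 probe sets, and a difference of 1 on this scale is 1 doubling. The arrays carry no detection calls. Intensities of different probe sets cannot be set against each other, because probes differ in brightness.

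T cell markers were compared between backgrounds, which does not by itself show the identity of the sorted cells. Of 14 T cell markers, 12 were measured, and none passed the test between backgrounds. Their median difference, B6g7 minus NOD, was -0.00, with 6 of 12 higher. Cd4, the coreceptor used in the sort, read 7.11 and 7.69 on the B6g7 arrays, against 6.82, 7.80 and 7.72 on the NOD arrays. The zeta-chain kinase Zap70 read 10.31 and 9.60 in B6g7, against 10.25, 9.89 and 9.77 in NOD.

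B6g7 array 1 stood apart from the rest over all probe sets, and both arrays numbered 1 carried liver transcripts. B6g7 array 1 correlated with the other 4 lymph node arrays at 0.926 to 0.934 over all probe sets, while those 4 correlated with each other at 0.962 to 0.987. B6g7 array 2 was closest to NOD array 3. The 6 liver markers measured read between 6.41 and 11.71 on B6g7 array 1 and between 4.66 and 8.40 on NOD array 1. On the remaining 3 arrays they read between 3.44 and 5.77. Albumin (Alb) read 11.71 and 4.41 on the B6g7 arrays, against 8.40, 4.37 and 4.29 on the NOD arrays. The pancreatic trypsinogen Prss2 read 8.46 on B6g7 array 1 and 4.05 on B6g7 array 2, and at most 4.06 in NOD. All 6 liver and all 6 acinar markers measured were higher in B6g7, by a median of 2.29 and 0.67, and none passed. The separation of the 3' and 5' ends of Gapdh, a sign of RNA quality, was 3.84 and 2.83 log2 units in B6g7, against 2.93, 3.09 and 3.12 in NOD. Xist, transcribed in female cells, read 3.64 on NOD array 1 and between 6.09 and 7.29 on the other 4 arrays. Of the Y-linked genes, Eif2s3y read 6.75 and 7.13 in B6g7, against 8.15, 6.23 and 7.12 in NOD. Kdm5d read 5.12 and 4.70 in B6g7, against 4.28, 3.84 and 3.97 in NOD, and Uty lay between 3.18 and 3.36 on all 5 arrays. The sex of the mice was not derived from these values. The serial codes of B6g7 array 1 and NOD array 1 also fall in 1 run of nearby codes, which holds pancreatic T cell arrays of both backgrounds too. The labels do not say what the codes mean.

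**Figure D1:**
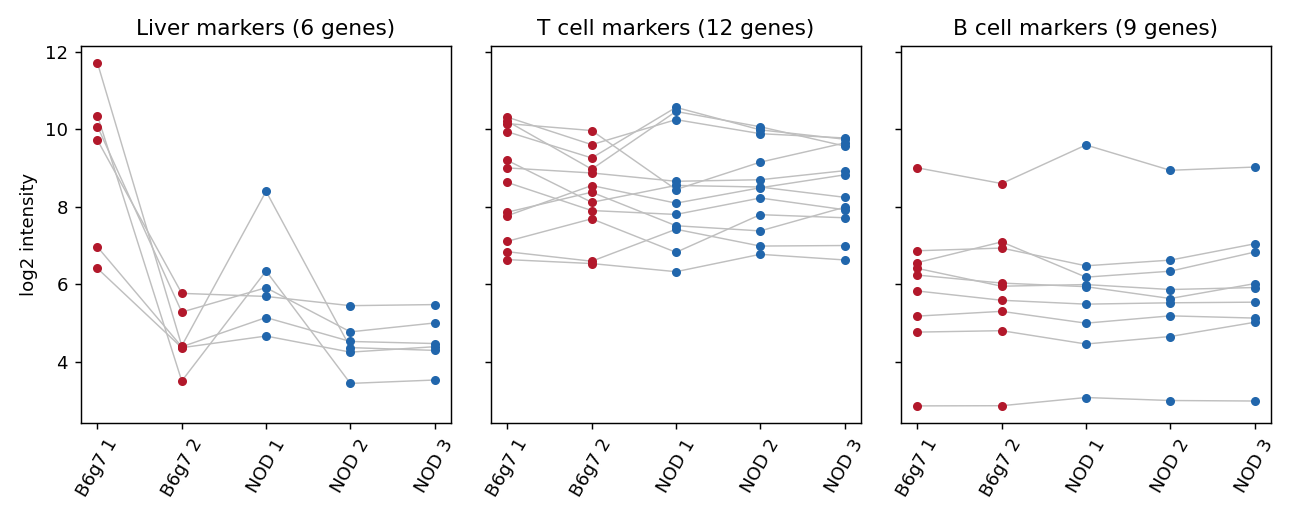
Log2 intensity (y axis) of liver, T cell and B cell marker genes on each lymph node array (x axis, B6g7 in red and NOD in blue, with a grey line for each gene). The 6 liver markers lie between 6.41 and 11.71 on B6g7 array 1, against 3.44 to 5.77 on B6g7 array 2 and NOD arrays 2 and 3, while the 12 T cell and 9 B cell markers show no such array.

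Markers of other leukocytes were near level between backgrounds. Of 9 B cell markers measured 7 were higher in B6g7, with a median difference of 0.19, and of 9 macrophage markers 7 were higher, with a median of 0.03. The 7 dendritic cell markers had a median of 0.16, the 8 granulocyte markers 0.14 and the 8 NK cell markers 0.01, and no marker in these lists passed. Among B cell transcripts, the immunoglobulin heavy chain gene Ighm read 9.004 and 8.60 in B6g7, against 9.59, 8.94 and 9.02 in NOD. Both CD8 coreceptor chains were measured. Cd8b1 read 8.10 and 6.86 on the B6g7 arrays, against 4.84, 4.75 and 4.73 on the NOD arrays, a difference of 2.71 (SE 0.92, limma adjusted p = 0.52). Cd8a, the partner chain on CD8 T cells, read 6.02 and 5.87 in B6g7, against 5.72, 5.95 and 5.90 in NOD. The groups did not overlap for Cd8b1 and did overlap for Cd8a.

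Between B6g7 and NOD lymph node T cells, 16 of 12422 probe sets passed at an adjusted p under 0.05 (limma, Benjamini-Hochberg over all probe sets), which is 0.129% of those tested. Of these, 9 were higher in B6g7 (0.0725% of those tested) and 7 lower (0.0564%). A further background is the share of probe sets whose arrays did not overlap between the groups, which was 22.3%, with 12.8% higher in B6g7 and 9.46% lower. An unadjusted p under 0.05 in limma was reached by 864 probe sets. The median difference over all 12422 probe sets was 0.04. The 16 included 11 genes by their brightest probe set, 3 genes by a dimmer one and 2 probe sets with no single gene. The higher ones were the kinase Pdk1, the predicted gene Gm11346, the surface protein Ly6e, and Akap9, Myo6 and Map7. The lower ones were Hars, Tlr6, Ryr2, Scg5 and Frg1. Differences ran between 1.003 and 2.64 for those higher in B6g7 and between -1.13 and -2.22 for those lower.

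**Figure D2:**
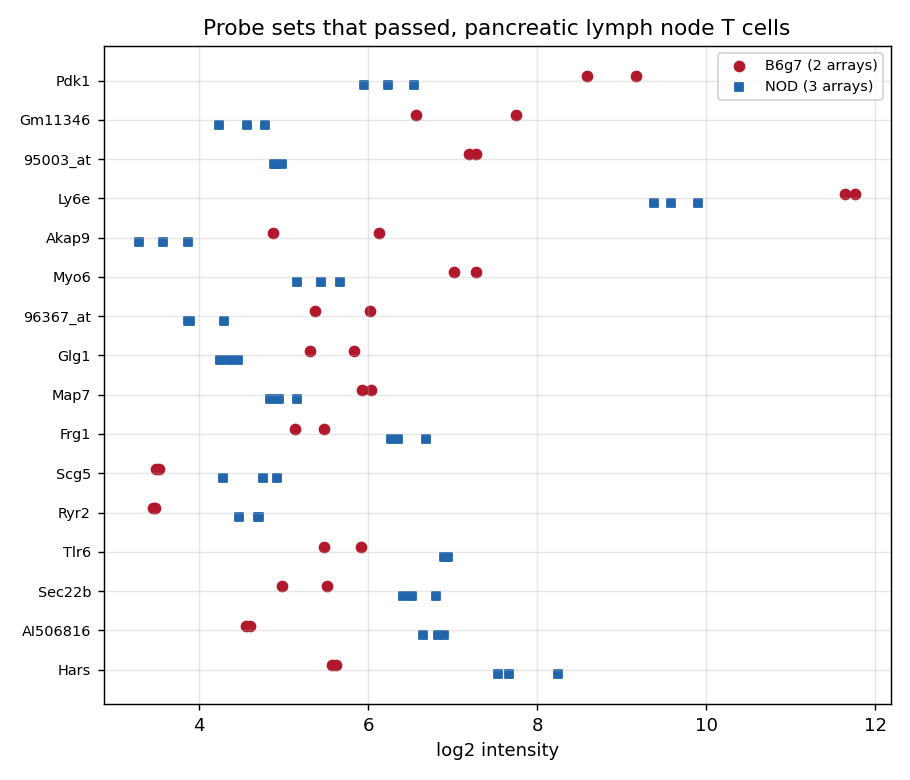
Log2 intensity (x axis) of the 16 probe sets that passed (y axis), with the 2 B6g7 arrays as red circles and the 3 NOD arrays as blue squares. In each row the B6g7 points lie all to 1 side of the NOD points. Rows with a probe set number in place of a symbol have no single gene.

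Each of these calls rested on few arrays. Leaving out either B6g7 array leaves 1 in that group, which was then assumed to vary like the other groups, and part of the loss of calls follows from that. Without B6g7 array 1, which carried liver transcripts, none of the 11 genes passed, with adjusted p between 0.0871 and 0.799, and of the 16 probe sets only 96367_at remained (adjusted p = 0.00395). Without B6g7 array 2, Akap9 (0.00863) and Gm11346 (0.0112) still passed and the other 9 genes lay between 0.0572 and 0.119. Leaving out NOD array 1 kept 6 of the 11, leaving out NOD array 2 kept 8 and leaving out NOD array 3 kept 10. A fit with neither B6g7 array 1 nor NOD array 1 kept 96367_at alone (adjusted p = 0.0235), and one with the level of the liver markers as a covariate kept 15 of the 16, all but Frg1 (0.0598). In all 16 both B6g7 arrays lay to 1 side of all NOD arrays, so the sign of any pair of arrays was fixed and only sizes are given. With B6g7 array 1 alone the probe sets that were higher differed by 0.95 to 3.22 and those lower by -1.15 to -2.24. With B6g7 array 2 alone the ranges were 0.96 to 2.93 and -0.96 to -2.24. At 22 days (B6g7 array 2 minus NOD array 2) they were 0.85 to 2.93 and -1.01 to -2.30, at 25 days (B6g7 array 1 minus NOD array 3) 0.77 to 3.52 and -0.79 to -2.10, and within the shared run of serial codes (B6g7 array 1 minus NOD array 1) 0.98 to 3.18 and -1.22 to -2.63. A fit of only the 10 T cell arrays of both sites with age as a covariate called 0 probe sets, with 392 at an unadjusted p under 0.05 in limma, and the same 10 arrays without age also called 0.

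Without detection calls, and with probes of different brightness, no common level marks a transcript as absent. As a rough guide, chosen after the data had been seen, the 6 liver probe sets read up to 5.77 on the arrays that lacked liver transcripts. For 14 of the 16 probe sets, all but those of Pdk1 and Ly6e, the dimmer group lay below that, and whether it held the transcript could not be read. In RNA of a whole population, fewer cells with a transcript and less of it per cell cannot be told apart.

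Pdk1 was among the genes with the largest rises. It encodes pyruvate dehydrogenase kinase 1, which switches off the enzyme that feeds pyruvate into the mitochondria. Pdk1 read 8.59 and 9.17 in B6g7, against 6.54, 6.24 and 5.95 in NOD, and both B6g7 arrays lay above all NOD arrays. The difference was 2.64 (SE 0.41, limma adjusted p = 0.00910), or 6.22-fold. Of the 18 measured genes of the glycolysis and glucose uptake list, Pdk1 was the only one to pass, 5 lay above 0 and 13 below, and the median difference was -0.21. That median was 0.00 without B6g7 array 1 and -0.07 without NOD array 2. Pfkp, a phosphofructokinase that commits sugar to glycolysis, read 6.98 and 6.98 in B6g7, against 8.45, 8.01 and 7.80 in NOD, a difference of -1.11 (SE 0.24, limma adjusted p = 0.103). A second probe set of Pfkp differed by -0.34 with overlapping groups. The oxidative phosphorylation list, the respiratory chain and ATP synthase, had 68 members measured, with 49 above 0, 19 below and none passing, and its median was 0.18. With B6g7 array 1 alone that median was 0.35 and with B6g7 array 2 alone 0.01. Over all 8251 genes, 4618 lay above 0 and 3633 below, with a median of 0.04.

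Ly6e is a small lipid-anchored protein of the lymphocyte surface, induced by type I interferon. Its brightest probe set read 11.64 and 11.76 in B6g7, against 9.90, 9.38 and 9.58 in NOD. The difference was 2.08 (SE 0.32, limma adjusted p = 0.00908), a fold of 4.22. The suffix of that probe set, _f_at, marks probes that the manufacturer took to match several similar transcripts. A second probe set for Ly6e read 6.45 and 5.38 in B6g7, against 6.52, 6.78 and 5.32 in NOD, with overlapping groups and a difference of -0.29.

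Akap9, Myo6, Map7 and Gm11346 completed the genes higher in B6g7 by their brightest probe set. Akap9, which anchors protein kinase A at the centrosome and Golgi, read 6.13 and 4.87 in B6g7, against 3.57, 3.29 and 3.87 in NOD, a rise of 1.92 (SE 0.32, limma adjusted p = 0.0148). Its B6g7 arrays differed by more than a doubling, and array 1, with the liver transcripts, was the higher. Myo6, a myosin that moves toward the minus end of actin filaments, read 7.02 and 7.28 in B6g7, against 5.16, 5.44 and 5.67 in NOD, a rise of 1.73 (SE 0.28, limma adjusted p = 0.0142). That probe set also carries the suffix _f_at, and the remaining probe sets for Myo6 differed by 0.28 and 0.41 without passing. Map7, which binds microtubules and recruits kinesin, read 5.93 and 6.03 in B6g7, against 4.95, 4.83 and 5.16 in NOD, a rise of 1.003 (SE 0.13, limma adjusted p = 0.00336). Gm11346, a predicted gene with no role given in the annotation, read 7.75 and 6.57 in B6g7, against 4.57, 4.78 and 4.24 in NOD, and it rose by 2.63 (SE 0.39, limma adjusted p = 0.00655). The Golgi glycoprotein gene Glg1 was called by a dimmer probe set, at 1.22, and the probe set 96367_at, which has no gene here, at 1.68. The probe set 95003_at, which has no single gene, read 7.27 and 7.19 in B6g7, against 4.88, 4.91 and 4.98 in NOD. Its difference was 2.31 (SE 0.39, limma adjusted p = 0.0158).

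Among the genes that passed by their brightest probe set, the largest fall was that of Hars, the histidyl-tRNA synthetase of the cytosol. Hars read 5.62 and 5.57 in B6g7, against 8.25, 7.54 and 7.67 in NOD, a fall of -2.22 (SE 0.37, limma adjusted p = 0.0156). Tlr6, a receptor for bacterial lipopeptides that pairs with Tlr2, read 5.48 and 5.91 in B6g7, against 6.94, 6.92 and 6.90 in NOD, a fall of -1.23 (SE 0.19, limma adjusted p = 0.00921). Frg1, a nuclear protein linked to RNA splicing, read 5.13 and 5.48 in B6g7, against 6.35, 6.68 and 6.28 in NOD, a fall of -1.13 (SE 0.21, limma adjusted p = 0.0489). All 3 of these had NOD arrays above 6.

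Ryr2 and Scg5 fell at low levels. Ryr2, the calcium release channel of heart muscle, read 3.48 and 3.45 in B6g7, against 4.71, 4.70 and 4.47 in NOD (difference -1.16, SE 0.17, limma adjusted p = 0.00655). Scg5, a chaperone of the neuroendocrine secretory pathway, read 3.49 and 3.53 in B6g7, against 4.75, 4.93 and 4.28 in NOD (difference -1.14, SE 0.16, limma adjusted p = 0.00421). For both, the NOD arrays too lay within the range of the liver probe sets on arrays without liver transcripts, so it could not be read whether either group held these transcripts. Dimmer probe sets of AI506816 and of Sec22b, a membrane fusion protein between endoplasmic reticulum and Golgi, fell by -2.21 and -1.33.

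Genes next in order of p did not pass and are given as values. On the higher side, Runx1, a transcription factor of blood cells, differed by 1.08 (adjusted p = 0.0654 in limma), and Tmem14c, a mitochondrial membrane protein of haem synthesis, by 2.39 (0.0737). Tmem14c read 7.37 and 7.35 in B6g7, against 5.30, 5.23 and 4.37 in NOD. Galnt10, which starts O-linked sugar chains, differed by 0.91 (0.0767) and Anapc11, the catalytic subunit of the anaphase-promoting complex, by 0.65 (0.0784). On the lower side stood St8sia1, which makes the ganglioside GD3, at -0.89 (adjusted p = 0.125 in limma), the proteasome lid gene Psmd6 at -1.37 (0.130), the hyaluronan receptor Cd44 at -0.73 (0.168) and the channel gene Cnga1 at -1.04 (0.168).

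The 16 probe sets were then read in the other 4 populations. These use different arrays but share 1 estimate of the spread per probe set in the fit, so a pass elsewhere is not independent. Several pancreatic T cell arrays also match a lymph node array in background and age and have a nearby serial code. Whether those came from the same mice is not stated. The differences of the 16 kept the same sign in 16 of 16 probe sets in pancreatic T cells and 15 in splenic leukocytes. They did so in 15 in the pancreatic infiltrate and in 16 in NK cells. Among all probe sets tested, the share with the same sign was 55.8% in pancreatic T cells and 57.6% in splenic leukocytes. It was 46.5% in the infiltrate and 52.2% in NK cells. The sign was shared by all 5 populations in 14 of 16, and the exceptions were Ryr2 in spleen (0.03) and Sec22b in the infiltrate (0.05). Over all probe sets 10.6% had 1 sign in all 5 populations. In pancreatic T cells, where 18 probe sets passed (0.145% of those tested), 6 of the lymph node calls passed again, which is 37.5% of the 16 and 33.3% of the 18. They were 96367_at, AI506816, Akap9, Gm11346, Myo6 and Pdk1. In the infiltrate, where 34 passed (0.274%), 5 did, which is 31.25% of the 16 and 14.7% of the 34, namely 96367_at, AI506816, Gm11346, Map7 and Pdk1. None of the 16 passed in splenic leukocytes, where 9 probe sets passed (0.0725%) and 155 had an unadjusted p under 0.05 in limma. None passed in NK cells either, where 6 passed (0.0483%) and 156 had an unadjusted p under 0.05.

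**Figure D3:**
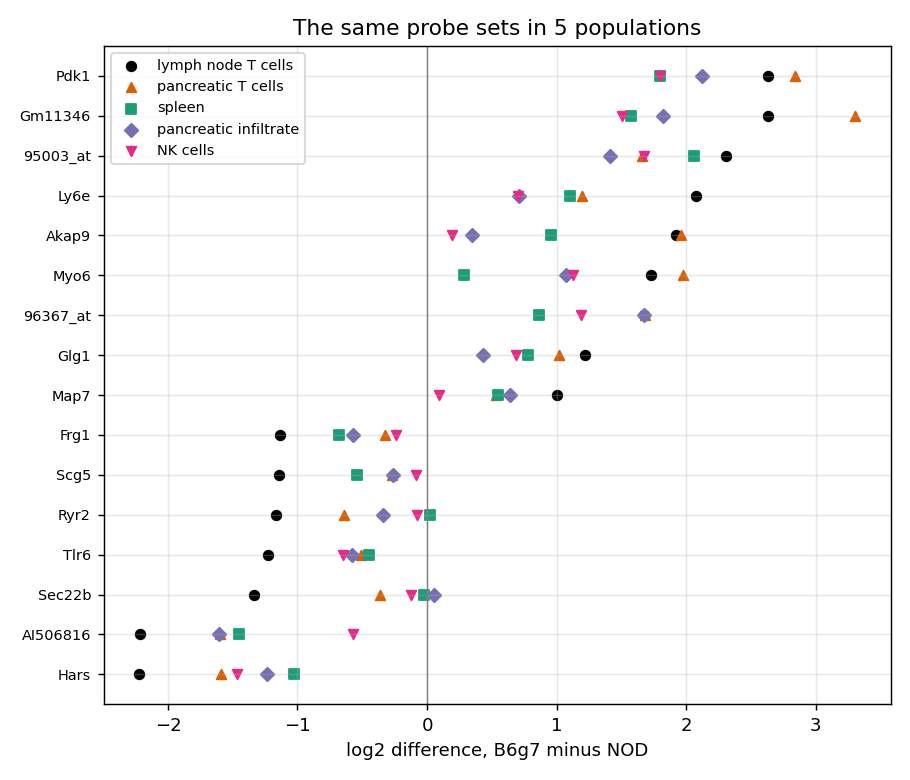
Difference between B6g7 and NOD in log2 units (x axis) for the 16 probe sets (y axis) in lymph node T cells, pancreatic T cells, spleen, pancreatic infiltrate and NK cells. The probe sets were chosen for passing in lymph node T cells, and 14 of 16 lie on 1 side of 0 in all 5 populations.

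Pdk1 lay above 0 in all 5 populations. Its difference was 2.64 in lymph node T cells, 2.85 in pancreatic T cells (limma adjusted p = 0.00556), 1.80 in splenic leukocytes (0.433), 2.12 in the infiltrate (0.0141) and 1.80 in NK cells (0.418). Ly6e differed by 2.08 in the lymph node, 1.20 in pancreatic T cells (limma adjusted p = 0.241), 1.10 in spleen, 0.71 in the infiltrate and 0.70 in NK cells. Hars differed by -2.22 in the lymph node, -1.59 in pancreatic T cells, -1.03 in spleen, -1.24 in the infiltrate and -1.47 in NK cells. Scg5 differed by -1.14 in the lymph node and by -0.27 in pancreatic T cells, -0.54 in spleen, -0.26 in the infiltrate and -0.08 in NK cells.

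Whether these differences were particular to the lymph node was tested in the same limma fit, as the lymph node difference minus that elsewhere. Against the mean of the other 4 populations 0 probe sets passed, with 451 at an unadjusted p under 0.05. Against pancreatic T cells 0 passed, with 351 at an unadjusted p under 0.05. All 16 probe sets were larger in size in the lymph node than in the mean of the other 4, as would follow from choosing them there, and none of these excesses passed (adjusted p at least 0.984). Against pancreatic T cells the genes of smallest p were Gstm3, Irf8 and Nefh on the higher side and BC147527, Scg5 and Igtp on the lower, as values only. Against the mean of the other 4 they were Klf13, Notch4 and Map7, then Scg5, Ryr2 and Ifi209. Klf13, a Krüppel-like transcription factor, read 7.94 and 8.03 in B6g7 lymph node T cells, against 6.87, 7.12 and 7.40 in NOD.

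Against splenic leukocytes, 4 probe sets passed the test of the difference, 0.0322% of those tested. The gene farthest apart was Cd72, a B cell surface receptor, which read 3.56 and 3.72 in B6g7 lymph node T cells, against 3.03, 3.27 and 3.32 in NOD. In splenic leukocytes Cd72 read 9.18 and 8.78 in B6g7, against 3.21 and 3.56 in NOD, and the B6g7 spleens lay far above every other array named here. Ifi209, of the interferon-induced Ifi200 family, read 4.43 and 4.33 in B6g7 lymph node T cells, against 5.30, 4.99 and 4.52 in NOD, and 6.66 and 6.57 in B6g7 spleen, against 4.77 and 4.58 in NOD spleen. The remaining probe sets belonged to the immunoglobulin light chain segments Igkv15-103 and Igkv14-111, which T cells do not use. Spleen holds many B cells and the sorted T cells few, and RNA of the spleen was amplified in 1 round rather than 2. The titles of the spleen arrays do not name the transgene, and no age is given for them. Cell type, amplification, transgene, age and site therefore cannot be told apart here.

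Genes of T cell activation lay mostly lower in B6g7, with no member past the test. Of 21 measured, 5 lay above 0 and 16 below, and the median was -0.30, against 0.04 over all genes. The lean was not particular to the lymph node: the list median was -0.55 in pancreatic T cells. It was -0.02 in spleen, 0.01 in the infiltrate and -0.01 in NK cells. Both B6g7 arrays lay below all NOD arrays in 9 of the 21, against 9.46% of all probe sets and 852 of 8251 genes. Tnfrsf18 (GITR), a receptor of activated and regulatory T cells, read 7.56 and 7.67 in B6g7, against 8.79, 9.19 and 8.55 in NOD, a difference of -1.23 (SE 0.30, limma adjusted p = 0.176). Cd44, raised on memory and activated T cells, read 4.57 and 4.43 in B6g7, against 5.40, 5.09 and 5.20 in NOD (adjusted p = 0.168 in limma). All 5 of these levels are low, and the remaining probe sets for Cd44 differed by -0.15 and -0.04. Tnfsf11 (RANKL) differed by -1.22 and Irf4, a transcription factor induced by receptor signals, by -1.03, both with adjusted p above 0.5. Without B6g7 array 1 the median was -0.20, without B6g7 array 2 it was -0.40, and without both arrays that carried liver transcripts it was -0.12.

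Other markers of a recent receptor signal were flat or dim. Il2ra read 3.87 and 3.76 in B6g7, against 3.92, 3.94 and 3.82 in NOD. Il2 lay between 2.99 and 3.30 on all 5 arrays, Ifng between 3.26 and 3.50 and Cd40lg between 3.33 and 3.57, and none of these 3 passed. Icos differed by 0.59 (SE 0.24, limma adjusted p = 0.626), with B6g7 array 2 at 5.32 and array 1 at 4.39. Ctla4 read 5.19 and 4.90 in B6g7, against 6.30, 5.28 and 5.49 in NOD (limma difference -0.64). Of a panel of 30 genes of T cell identity, homing and function, 26 were measured, 12 lay above 0, 14 below and none passed, with adjusted p from 0.168 to 0.996.

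Transcripts of naive and recirculating T cells leaned the opposite way. Of 13 measured 10 lay above 0 and 3 below, none passed, and the median was 0.19. In pancreatic T cells the list median was 0.38, in spleen -0.05, in the infiltrate 0.07 and in NK cells -0.10. Klf2, a transcription factor that keeps T cells recirculating, read 7.52 and 7.33 in B6g7, against 6.92, 6.96 and 6.84 in NOD, a difference of 0.52 (SE 0.19, limma adjusted p = 0.550). Il6ra, a cytokine receptor chain high on naive CD4 T cells, differed by 1.59 (SE 0.52, limma adjusted p = 0.479), and Klf3 by 1.33 (SE 0.53, limma adjusted p = 0.622). Ccr7, which draws T cells into lymph nodes, ran against the list. It read 5.64 and 5.23 in B6g7, against 6.54, 6.28 and 5.98 in NOD, a difference of -0.83 (SE 0.32, limma adjusted p = 0.613). The median was 0.42 without B6g7 array 1, 0.04 without B6g7 array 2 and 0.36 without NOD array 3, so its size depended on the arrays kept.

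Adhesion and homing genes were among those with most members at low p. Of 24 integrins, selectin ligands and chemokine receptors measured 6 lay above 0 and 18 below, with a median of -0.18, and 8 reached an unadjusted p under 0.05 on the lower side, though none passed the test over all probe sets. Over all genes 391 of 8251 did so on that side. Itgb1, the beta chain shared by the VLA integrins, read 8.96 and 9.30 in B6g7, against 10.55, 10.03 and 10.49 in NOD, a difference of -1.23 (SE 0.34, limma adjusted p = 0.298). Itga6, which pairs with it as a laminin receptor, differed by -1.15 (SE 0.36, limma adjusted p = 0.461). Itgb2, the chain of LFA-1, read 8.26 and 8.20 in B6g7, against 9.07, 8.79 and 8.88 in NOD (limma difference -0.69). Cxcr3, the receptor for interferon-induced chemokines, read 5.90 and 6.41 in B6g7, against 6.82, 6.92 and 6.65 in NOD. Leaving out single arrays moved the median between -0.28 and -0.11. It was -0.11 without B6g7 array 2, -0.28 without NOD array 1 and -0.28 without NOD array 3.

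**Figure D4:**
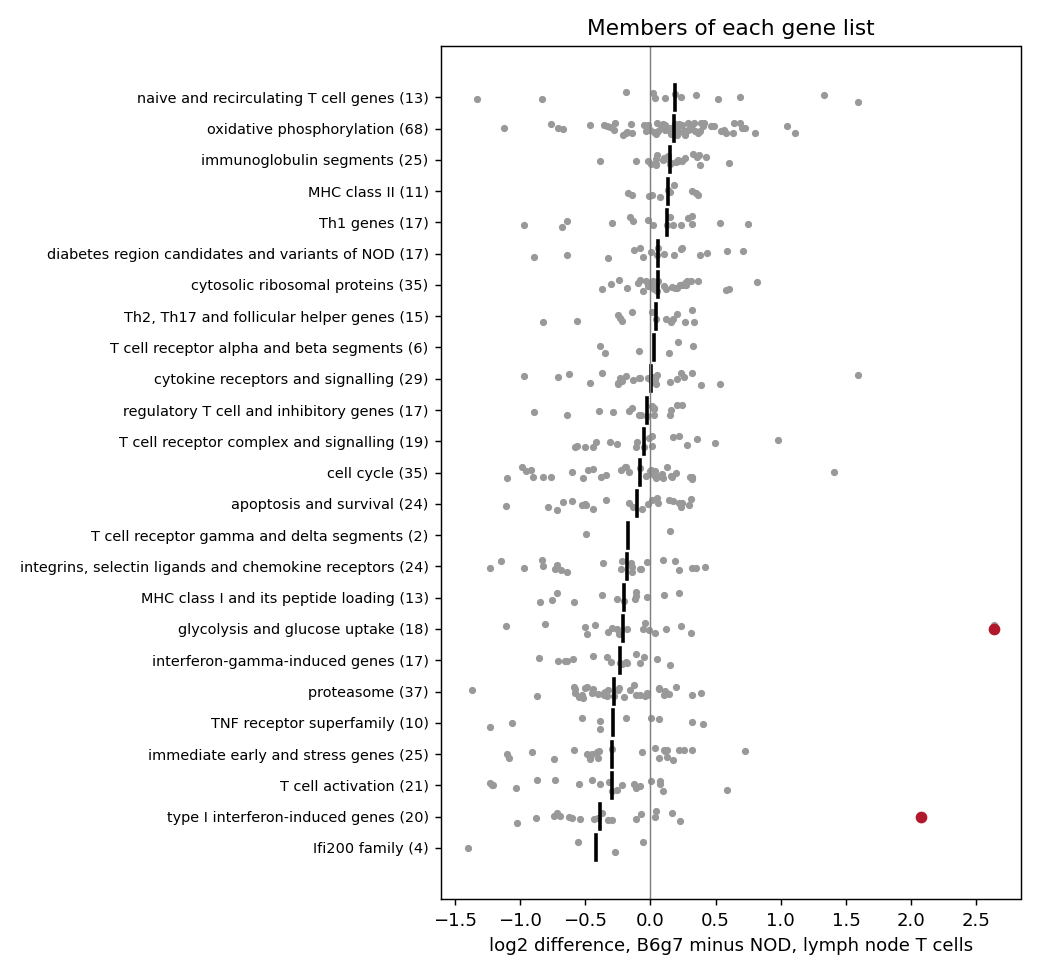
Differences between B6g7 and NOD lymph node T cells in log2 units (x axis) for the measured members of 25 gene lists (y axis, with the number measured). Grey points are members that did not pass, red points the 2 that did (Pdk1 and Ly6e), and black bars are list medians.

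Survival and TNF receptor genes had no member past the test. Of 10 TNF receptors measured 6 lay below 0 and 4 above, with a median of -0.29. Tnfrsf1b, the type 2 TNF receptor of T cells, read 6.32 and 6.36 in B6g7, against 7.41, 7.45 and 7.34 in NOD, a difference of -1.06 (SE 0.27, limma adjusted p = 0.208). In pancreatic T cells it passed, at -1.48 (limma adjusted p = 0.0300). The survival gene Bcl2 read 7.04 and 7.76 in B6g7, against 8.35, 9.16 and 8.02 in NOD, a difference of -1.11 (SE 0.43, limma adjusted p = 0.609). Of the 24 apoptosis and survival genes measured 10 lay above 0 and 14 below, with a median of -0.10, which was 0.03 without B6g7 array 1. The median of the TNF receptors was -0.16 without B6g7 array 2 and -0.40 without both arrays that carried liver transcripts.

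Cell cycle genes split by member. Of 35 measured 15 lay above 0 and 20 below, none passed, and the median was -0.08. The replication licensing genes Mcm5 and Mcm3 differed by -1.10 and -0.90, and the D cyclin Ccnd3 by -0.95 (SE 0.32). Ccnd2, another D cyclin, read 9.76 and 10.003 in B6g7, against 8.35, 8.86 and 8.21 in NOD, a difference of 1.41 (SE 0.57, limma adjusted p = 0.636). The list median was -0.40 without B6g7 array 2, -0.12 without NOD array 3 and 0.08 without B6g7 array 1, so its sign depended on that array.

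Proteasome subunits and class I molecules lay mostly below 0, with no member past the test. Of 37 proteasome genes 29 lay below 0 and 8 above, with a median of -0.28. Psmd6 read 6.50 and 6.95 in B6g7, against 7.92, 8.19 and 8.16 in NOD. Of 13 class I and peptide loading genes 11 lay below 0 and 2 above, with a median of -0.21. The class I heavy chain H2-D1 read 10.02 and 10.62 in B6g7, against 11.50, 11.04 and 10.67 in NOD, and H2-K1 differed by -0.71. B6g7 array 1 was the lowest array and NOD array 1 the highest for H2-D1. Without NOD array 1 the medians of these lists were -0.16 and -0.07, and without both arrays that carried liver transcripts they were -0.14 and -0.12. The class I median was -0.34 without B6g7 array 2 and -0.32 without NOD array 2.

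Type I interferon is sensed by the receptor Ifnar, and many of its target genes carry the interferon-stimulated response element in their promoters. Of 36 type I interferon-induced genes 20 were measured, 5 lay above 0 and 15 below, and Ly6e alone passed, on the higher side. The median was -0.39. Isg15, a ubiquitin-like modifier, read 6.27 and 7.24 in B6g7, against 7.51, 7.94 and 7.04 in NOD (limma difference -0.74, SE 0.40). Ifit3, which binds foreign RNA together with Ifit1, read 4.40 and 4.89 in B6g7, against 5.65, 6.85 and 4.51 in NOD (limma difference -1.03, SE 0.58). Ifit1 read 4.83 and 5.36 in B6g7, against 5.68, 6.65 and 4.84 in NOD. The groups overlapped for all 3, and NOD array 3 lay among the B6g7 arrays. NOD array 2 was the highest array for 15 of the 20 genes. Without NOD array 2 the median was -0.12 and without NOD array 3 it was -0.67. It was -0.26 without B6g7 array 1 and -0.57 without B6g7 array 2, so the size of this shift rested on single NOD arrays. Each of these settings kept NOD array 1 or NOD array 2, so they cannot show that its sign was stable. The mean level of the list was 6.12 and 6.36 in B6g7, against 6.53, 6.94 and 6.03 in NOD. NOD array 3 thus lay below both B6g7 arrays.

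The promoters of Ifit3, Ifit1 and Isg15 are shown because these genes stood lower in the lymph node and higher in the pancreas, and because Ly6e did not follow them. Each window holds 250 bases before and 50 after the start of the gene (RefSeq, GRCm38.p6), given 5′ to 3′ on the gene's strand. The capitals mark matches to GAAANNGAAA, the core of the response element, on either strand, and matches may overlap. Ifit3 is at chr19:34583279-34583578 (plus strand), Ifit1 at chr19:34640639-34640938 (plus strand) and Isg15 at chr4:156200769-156201068 (minus strand).
Ifit3: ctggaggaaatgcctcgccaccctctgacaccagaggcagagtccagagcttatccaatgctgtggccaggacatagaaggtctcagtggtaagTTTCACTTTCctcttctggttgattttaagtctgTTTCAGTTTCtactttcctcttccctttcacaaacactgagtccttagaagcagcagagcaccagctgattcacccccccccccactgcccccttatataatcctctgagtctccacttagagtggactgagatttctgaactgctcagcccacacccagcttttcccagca
Ifit1: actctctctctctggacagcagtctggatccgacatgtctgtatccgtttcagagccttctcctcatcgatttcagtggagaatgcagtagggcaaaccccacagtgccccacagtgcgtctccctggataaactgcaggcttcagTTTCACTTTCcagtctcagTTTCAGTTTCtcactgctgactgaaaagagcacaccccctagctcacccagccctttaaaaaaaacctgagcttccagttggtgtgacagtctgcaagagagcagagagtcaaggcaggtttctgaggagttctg
Isg15: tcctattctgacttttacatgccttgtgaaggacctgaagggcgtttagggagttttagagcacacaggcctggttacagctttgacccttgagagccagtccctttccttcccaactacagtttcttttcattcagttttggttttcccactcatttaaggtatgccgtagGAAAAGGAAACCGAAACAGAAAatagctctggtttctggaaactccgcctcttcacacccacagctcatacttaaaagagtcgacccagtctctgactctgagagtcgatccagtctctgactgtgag
Ifit3 and Ifit1 had 2 matches each and Isg15 had 3, which overlap. Of the 20 measured genes 15 had a window in the table, and 8 of these had a match in at least 1 window. By window, 9 of 23 held a match (39.1%), against 3.44% of all 32851 windows. The list was drawn up as interferon-induced genes, so a raised share follows from that choice and is no result of these arrays. Some genes have several windows, which can overlap. Ly6e had no window in the table. A match describes letters in the window and does not show that a factor binds there.

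The same list stood higher in B6g7 in pancreatic T cells. There 19 of 20 members lay above 0, with a median of 0.74, and 15 of the 20 lay below 0 in the lymph node and above 0 in the pancreas. None passed in the pancreas. Ifit1 differed by -0.63 in the lymph node and 1.79 in the pancreas, and the test of that gap gave -2.42 (SE 0.80, limma adjusted p = 0.998). Usp18, which trims Isg15 from proteins, differed by -0.41 and 1.79, with a gap of -2.19 (SE 0.71, limma adjusted p = 0.998). Ly6e was higher in B6g7 at both sites, by 2.08 and 1.20. No member passed the test of the gap between sites, so the opposite signs are a description of these arrays.

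**Figure D5:**
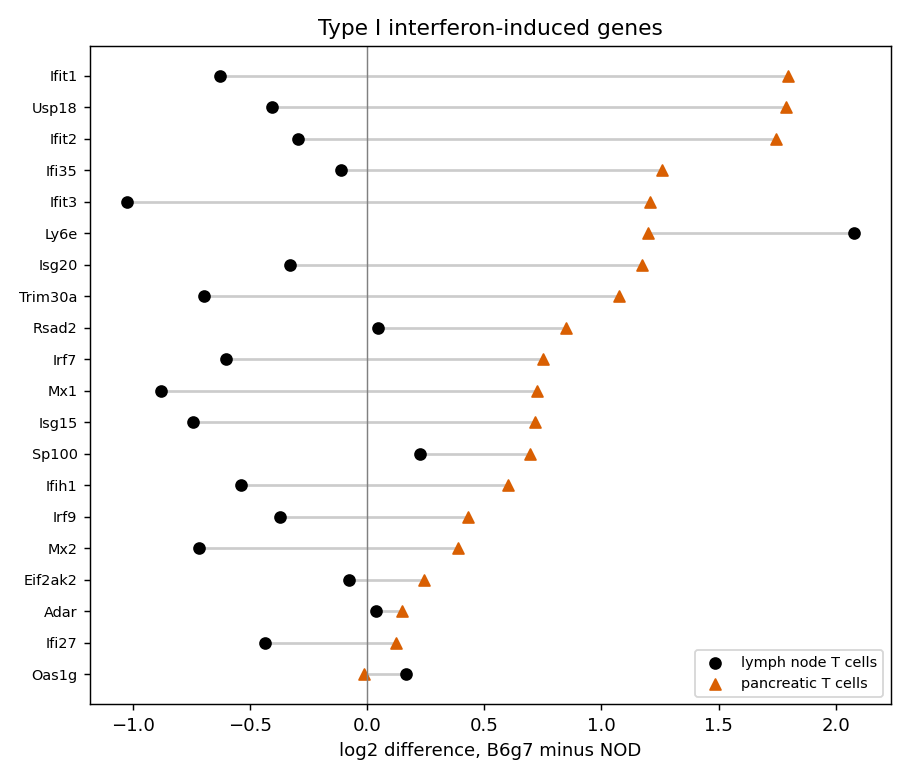
Difference between B6g7 and NOD in log2 units (x axis) for the 20 measured type I interferon-induced genes (y axis) in lymph node T cells (black circles) and pancreatic T cells (orange triangles). Of the 20, 15 lie below 0 in the lymph node and above 0 in the pancreas, and no gap passed the test between sites.

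Genes listed as induced by interferon-gamma also lay lower in the lymph node cells. Besides targets, the list holds members of the receptor pathway, namely Ifngr1, Ifngr2 and Jak2. Of 17 measured 15 lay below 0 and 2 above, none passed, and the median was -0.24. Irf1, a transcription factor induced early by interferon, read 7.92 and 8.94 in B6g7, against 9.65, 9.39 and 8.83 in NOD (limma difference -0.86, SE 0.38). The kinase Jak2 read 6.90 and 6.87 in B6g7, against 7.73, 7.58 and 7.47 in NOD (limma difference -0.70, SE 0.25). The GTPase gene Igtp differed by -0.59 in the lymph node and by 1.54 in pancreatic T cells. The list did not follow it as a whole, with 8 of 17 genes below 0 in the lymph node and above 0 in the pancreas and a median of 0.03 there. Irf8, a transcription factor of the same family as Irf1, differed by -0.64 in the lymph node and fell by -2.13 in the pancreas (limma adjusted p = 0.00556), where it was the 1 member to pass. Without B6g7 array 1 the list median was -0.02, without B6g7 array 2 -0.56, without NOD array 1 -0.12 and without NOD array 3 -0.38. It was 0.07 without both arrays that carried liver transcripts and -0.33 with the liver covariate. The mean level of the list was 6.03 and 6.51 in B6g7, against 6.78, 6.57 and 6.42 in NOD, lowest on B6g7 array 1, which had the most liver transcripts.

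Of the Ifi200 family, interferon-induced DNA sensors that vary between mouse strains, 4 of 16 listed genes were measured and all 4 lay below 0. Ifi204 read 7.37 and 7.55 in B6g7, against 9.25, 8.65 and 8.69 in NOD, a difference of -1.40 (SE 0.39, limma adjusted p = 0.298). In pancreatic T cells Ifi204 differed by 0.19. Ifi202b, known to vary between these strains, lay between 2.99 and 3.22 on all 5 lymph node arrays, with overlapping groups.

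T helper lineage genes showed no member past the test. Of 17 Th1 genes 10 lay above 0 and 7 below, with a median of 0.12, and Stat4, which carries interleukin-12 signals, differed by -0.97 (SE 0.38, limma adjusted p = 0.617). Of 15 genes of Th2, Th17 and follicular helper cells 9 lay above 0 and 6 below (median 0.04), and of 17 regulatory T cell and inhibitory genes 8 lay above 0 and 9 below (median -0.03). The T cell receptor complex had 19 members measured, with 8 above 0 and 11 below and a median of -0.05. Of these only Thy1 reached an unadjusted p under 0.05, at 10.15 and 9.97 in B6g7, against 8.44, 9.15 and 9.65 in NOD (limma difference 0.98, SE 0.42, adjusted p = 0.682). Candidate genes of the diabetes susceptibility regions, 17 measured, had 11 above 0, 6 below and a median of 0.06. Among them Ptpn22, a phosphatase that restrains receptor signals, differed by -0.89 (SE 0.42, limma adjusted p = 0.710). Leaving out single arrays gave medians of 0.03 to 0.28 for the Th1 list, lowest without B6g7 array 2 and highest without B6g7 array 1. The other medians in this paragraph crossed 0 when 1 array was left out, between -0.08 and 0.06 for the receptor complex, -0.14 and 0.01 for regulatory genes, -0.08 and 0.06 for Th2, Th17 and follicular helper genes, and -0.03 and 0.15 for diabetes candidates. In all 4 the low or the high end of that range came without a B6g7 array.

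The remaining lists also had no member past the test. Of 35 ribosomal protein genes 23 lay above 0 and 12 below (median 0.05), and of 29 cytokine receptor and signalling genes 15 lay above 0 and 14 below (median 0.00). Immediate early and stress genes, which can reflect handling, had 11 of 25 above 0 and 14 below, with a median of -0.29. The phosphatase gene Dusp1 read 5.53 and 5.62 in B6g7, against 7.31, 6.41 and 6.31 in NOD (limma difference -1.10, SE 0.44). That median was -0.08 without B6g7 array 1, -0.13 without B6g7 array 2 and -0.09 without NOD array 1, and 0.02 with the liver covariate. Of 11 class II genes 8 lay above 0 and 3 below, with a median of 0.14, and of 25 immunoglobulin segments 22 lay above 0 and 3 below, with a median of 0.15. Of 6 receptor alpha and beta segments 3 lay above 0 and 3 below, with a median of 0.03, and the 2 gamma and delta segments split 1 to 1. With single arrays left out the medians ran between -0.04 and 0.25 for ribosomal proteins, -0.03 and 0.02 for cytokine receptors, -0.05 and 0.19 for class II genes and 0.08 and 0.31 for immunoglobulin segments. The ribosomal range ran between its values without B6g7 array 1 and without B6g7 array 2, and the low class II and immunoglobulin values came without NOD array 1. The high immunoglobulin value came without NOD array 3.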

How the data were processed

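The table of probe set intensity was used as the authors deposited it, on a linear scale with 1 column per array. The submitters' processing notes mention RMA for other arrays of the series. For the 5 lymph node arrays no source used here gives the method. No intensity was 0 or less, so log2 was taken without a pseudocount. Of 12488 probe sets 66 controls were left out. Gene names came from the platform annotation, updated through Entrez identifiers to RefSeq GRCm38.p6: 10833 had 1 gene (10817 by Entrez identifier), 396 several and 1193 none. The probe set of highest mean over all arrays stood for each of 8251 genes.

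A model with 1 mean for each of 10 groups was fitted over all 24 arrays in limma 3.58.1 under R 4.3.3, leaving 14 residual degrees of freedom. Its moderated p-values were two-sided and adjusted by Benjamini-Hochberg over 12422 probe sets. The script was tested on simulated data. No array was dropped or imputed. The number of arrays limits the precision.

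The comparison, its gene lists and panel were chosen with earlier results of these data known. Named are the genes that passed without overlap, then those of smallest p up to 10 a direction, up to 4 of smallest p in each list and the panel. Genes outside this rule (Alb, Prss2, Ighm, Zap70, Cd8b1, Ifit1, Usp18, Mcm3 and others given beside a result) were named after their values were seen. Arrays with the same number in both groups were not taken as pairs. Their deviations from the group means correlated at 0.29 for number 1 and -0.04 for number 2. The deviations of the 2 B6g7 arrays are exact opposites, so the value for number 2 is no separate check. The value for number 1 is between the 2 arrays that carried liver transcripts and fall in 1 run of serial codes. These correlations therefore cannot decide whether the numbers mark pairs.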

Additional observations from a re-analysis of the deposited data

Results flagged for a closer look

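The background difference in lymph node T cells differed from that in splenic leukocytes for 4 probe sets, by the limma test of the difference itself. The gap, lymph node minus spleen, was -5.16 for Cd72, -2.49 for Ifi209, -1.50 for a probe set of Igkv14-111 and 2.09 for a probe set of Igkv15-103. In each the larger background difference was that of the spleen. The Igkv15-103 probe set read 3.80 and 4.29 in B6g7 lymph node T cells, against 3.79, 4.05 and 4.15 in NOD, and 4.94 and 5.46 in B6g7 spleen, against 7.003 and 7.47 in NOD spleen. The Igkv14-111 probe set read 4.18 and 4.12 in B6g7 lymph node T cells, against 4.28, 4.13 and 4.46 in NOD, and 6.70 and 6.77 in B6g7 spleen, against 5.14 and 5.61 in NOD spleen. Light chain segments share sequence, so these probes may read related segments too.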

How the results depend on the processing

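The arrays of the groups did not overlap in any of the 16 probe sets, so their signs say little about stability and the counts are given. Quantile normalization and centring on the array median each gave 16 (9 higher, 7 lower), the trended robust prior 20 and array weights 24 (14 higher, 10 lower). Without the 40% dimmest probe sets 11 passed (7 higher, 4 lower), and with 1 probe set per gene 10 (6 higher, 4 lower). A fit of only the 5 lymph node arrays, with 3 residual degrees of freedom, gave 2 (1 higher, 1 lower), with 813 at an unadjusted p under 0.05 in limma. The 10 T cell arrays alone gave 0 in either direction, with 387 at that p, and 0 with age as a covariate. Runs of serial codes as a random block gave 38 (24 higher, 14 lower). Leaving out single arrays gave 1 to 14 in all, 1 to 8 higher and 0 to 6 lower. After the data were seen, leaving out both arrays that carried liver transcripts gave 1 (1 higher, 0 lower; 238 at an unadjusted p under 0.05), and a liver covariate 22 (15 higher, 7 lower, 68.2% higher against 56.25%). The gap to spleen gave 0 without the dimmest probe sets, 2 to 3 with single arrays left out, 2 without both liver arrays and 5 with the liver covariate. The gaps to pancreatic T cells and to the mean of the other 4 populations gave 0 to 1 with single arrays left out, with the 1 in each arising without NOD array 3. Of the gene and list values with an alternative setting, 1101 kept their call or stayed within their spread, 87 lost a call, 11 gained one and 44 list medians moved beyond their spread. The 1101 do not measure stability. They include list medians that the trended prior, the fits of fewer arrays and 1 probe set per gene could not change. They also include genes that passed in neither setting. The cause of the changes was not tested.

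The replicate block, with the array number as a pairing in the 5 lymph node arrays, gave 0 probe sets (0 higher, 0 lower), with 1252 at an unadjusted p under 0.05 in limma and 1 residual degree of freedom. The same kind of block over both T cell sites left the gap to pancreatic T cells at 0.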
